A study of Mus musculus with 2 samples.

Results

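Genes of blood vessel growth and endothelial character were followed in 2 mouse melanoma lines, 10 in all, chosen by symbol: Vegfa, Vegfb, Vegfc, Pgf, Angpt1, Angpt2, Angptl4, Egfl7, Eng and Tgfa. All 10 were found, among 23284 symbols. The lines were B16/BL6, a subline selected for invasiveness, grown in RPMI medium, and B16, the parental melanoma line, grown in DMEM. Both are of the C57BL/6 strain, and both media held 10% fetal bovine serum and 1% penicillin/streptomycin. Each line gave 1 RNA-seq library, so values have no replicate error, differences were described without tests or p-values, and the line and its medium cannot be told apart. Values are FPKM, fragment numbers set relative to transcript length and library depth, which allows levels of different genes to be compared. In these bulk cultures, fewer cells of a type and less RNA per cell cannot be told apart.

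Blood vessels grow under secreted ligands that act on receptors of endothelial cells. VEGF-A, the product of Vegfa, is the main one and signals through the receptor kinases encoded by Flt1 and Kdr, with neuropilins as co-receptors. VEGF-B and placental growth factor (Pgf) bind the Flt1 receptor, and VEGF-C binds the Flt4 receptor and drives lymphatic growth. Angiopoietin-1 activates the receptor Tek and steadies vessels, while angiopoietin-2 largely opposes it. Egfl7 is a secreted matrix protein and Eng (endoglin) a co-receptor for TGF-beta and BMP ligands, both best known from endothelium. Tgfa encodes a ligand of the EGF receptor, and Angptl4 a secreted inhibitor of lipoprotein lipase. Tumour cells can secrete many of these ligands, whereas their receptors sit mostly on the vessels of the host, which cultured cells do not contain.

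The gene with the largest difference, Egfl7, has several starts and carries a microRNA in an intron. RefSeq (GRCm38.p6) gives windows before 3 Egfl7 starts. They are shown because the deposited value is 1 per gene and does not say which start was used. The windows before the single listed starts of Tgfa and Vegfb are shown with them, Tgfa for its lower level in B16/BL6 and Vegfb as the only window with letters of an Mitf site. Each covers up to 250 bases before the listed start, on the gene's own strand, cut where the GENCODE M21 annotation places an exon. RefSeq lets the Tgfa gene begin 184 bases ahead of the start its window is listed for, so the 66 bases before that earlier edge are shown.
Egfl7, start 1 (chr2:26580833-26581055, plus strand): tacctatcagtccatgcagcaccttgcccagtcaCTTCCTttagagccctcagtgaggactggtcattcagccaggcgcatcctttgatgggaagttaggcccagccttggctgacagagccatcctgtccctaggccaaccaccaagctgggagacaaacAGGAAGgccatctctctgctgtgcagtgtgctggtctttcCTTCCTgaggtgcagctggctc
Egfl7, start 2 (chr2:26583615-26583863, plus strand): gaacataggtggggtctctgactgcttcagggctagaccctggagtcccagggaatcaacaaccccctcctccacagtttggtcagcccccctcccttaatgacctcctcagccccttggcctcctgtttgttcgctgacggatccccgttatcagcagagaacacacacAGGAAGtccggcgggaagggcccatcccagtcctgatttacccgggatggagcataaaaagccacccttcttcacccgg
Egfl7, start 3 (chr2:26586386-26586629, plus strand): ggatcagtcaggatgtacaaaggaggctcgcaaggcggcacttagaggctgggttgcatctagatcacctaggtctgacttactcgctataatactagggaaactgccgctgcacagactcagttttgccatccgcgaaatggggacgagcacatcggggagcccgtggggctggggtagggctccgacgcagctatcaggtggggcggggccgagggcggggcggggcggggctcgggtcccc
Tgfa (chr6:86194972-86195037, plus strand): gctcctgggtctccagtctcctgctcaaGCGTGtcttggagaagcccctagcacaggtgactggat
Vegfb (chr19:6987652-6987901, minus strand): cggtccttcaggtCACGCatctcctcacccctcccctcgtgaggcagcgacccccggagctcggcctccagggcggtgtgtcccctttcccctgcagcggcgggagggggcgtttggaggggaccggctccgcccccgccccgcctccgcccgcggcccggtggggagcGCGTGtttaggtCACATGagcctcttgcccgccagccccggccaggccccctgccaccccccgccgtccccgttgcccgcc
Capitals mark matches, read on both strands, to ACGTG or GCGTG (the core of hypoxia response elements), to CACGTG or CATGTG (letters bound by Mitf, the melanocyte transcription factor), and to AGGAAG (letters within many sites of ETS factors, which act in endothelial cells). The last motif was chosen after the windows had been seen. A match is a description of letters, not a site.

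The AGGAAG letters stood in the windows of Egfl7 starts 1 and 2 and in those of Eng and Tgfa (for Tgfa in the stretch not shown), 4 of the 11 windows listed for the members, and in 29.5% of all 32851 mouse windows. The hypoxia core stood in 4 of the 11, against 38.6% of all windows. These were the windows of Tgfa and Vegfb, of start 2 of Vegfa and of start 1 of Pgf. The E-box letters stood in 1, that of Vegfb, against 17.6%. No letters of any of these kinds were found before start 3 of Egfl7, start 1 of Vegfa, start 2 of Pgf or the listed start of Vegfc. Windows were listed for 7 of the 10 genes, and Angpt1, Angpt2 and Angptl4 were not among them. The microRNA within Egfl7, which is known to act in endothelial cells, has the mature sequence below (RefSeq, GRCm38.p6, chr2:26591402-26591423, plus strand), with its seed, bases 2 to 8, in capitals.
mmu-miR-126a-3p: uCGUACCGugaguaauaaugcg
The row Mir126 was listed at 0 in both libraries. These were libraries of polyadenylated RNA, which do not capture mature microRNAs, so that row carries no information on the microRNA.

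Of the 10 genes, 7 reached 1 FPKM in at least 1 library, and Pgf, Angpt1 and Angptl4 did not. The order of levels in B16/BL6 was Eng, Vegfb, Egfl7, Vegfc, Vegfa, Angpt2, Tgfa, Pgf, Angptl4 and Angpt1. In B16 it was Eng, Vegfb, Angpt2, Vegfa, Egfl7, Vegfc, Tgfa, Pgf, Angptl4 and Angpt1. Egfl7 therefore took place 3 in B16/BL6 and place 5 in B16, and Angpt2 place 6 in B16/BL6 and place 3 in B16. In B16/BL6, Vegfc, Vegfa and Angpt2 lay between 10.0 and 10.5 FPKM, and their order there cannot be read without replicates.

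**Figure D1:**
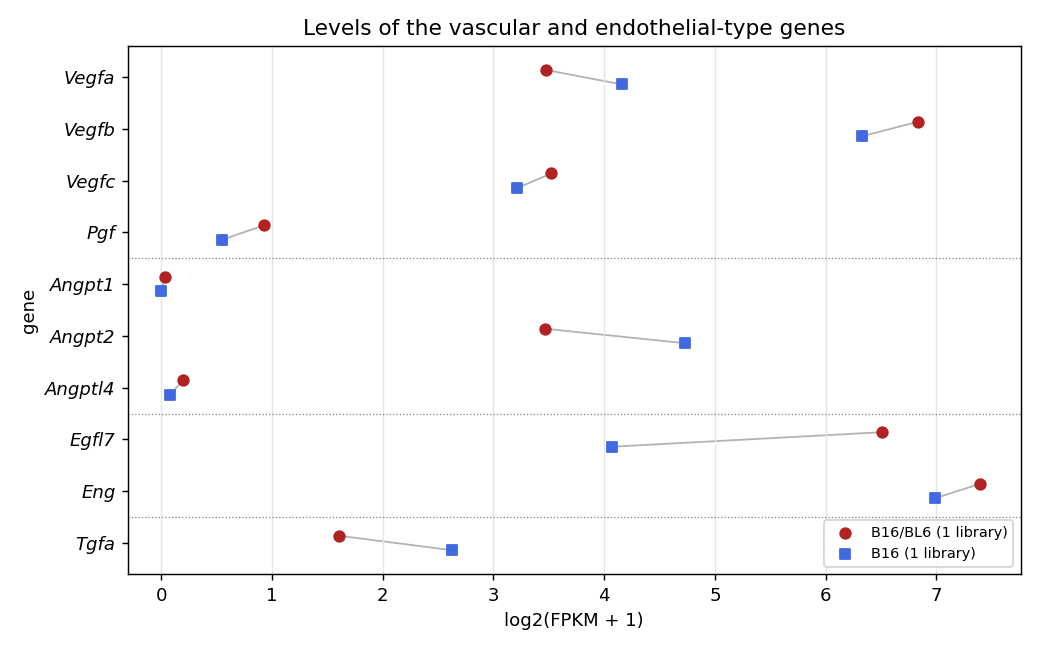
Level of each of the 10 genes on the horizontal axis, as log2(FPKM + 1), in the 1 library of B16/BL6 (red circles) and the 1 library of B16 (blue squares). Dotted lines separate VEGF ligands, angiopoietins, endothelial-type genes and Tgfa; the widest gap is that of Egfl7, at 89.9 FPKM in B16/BL6 and 15.8 FPKM in B16.

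Differences are on the log2(FPKM + 1) scale, B16/BL6 minus B16. The pseudocount of 1 understates the change of low genes. Of the 7 genes at 1 FPKM or more, 1 was higher by 2-fold or more in B16/BL6 (Egfl7), 2 were lower by 2-fold or more (Angpt2 and Tgfa) and 4 lay within 2-fold. Among all 10709 genes at that minimum, 3.31% were higher by this limit and 3.16% lower, 354 and 338 genes, or 6.46% in either direction. On a scale where each library sums to 1000000 (the TPM scale) that split was 369 higher and 583 lower. The median difference of the 7 was 0.31, beside 0.01 for all genes. The genes were chosen with these results known, so their share past 2-fold was not tested.

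**Figure D2:**
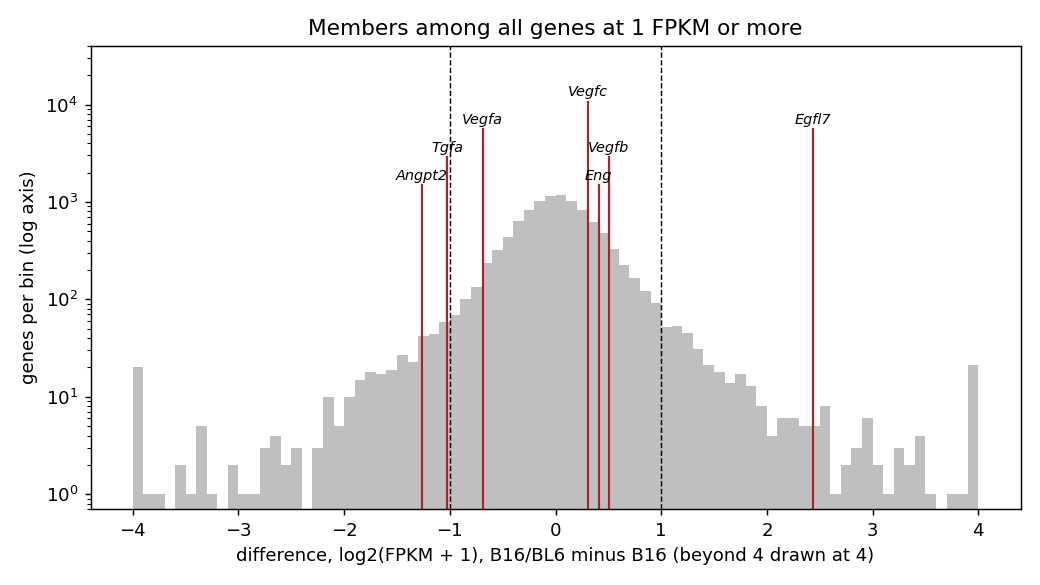
Histogram of the difference in log2(FPKM + 1), B16/BL6 minus B16, for all 10709 genes that reached 1 FPKM (grey, log vertical axis), with red lines at the 7 vascular and endothelial-type genes among them and dashed lines at 2-fold. Egfl7 lies far on the right at 2.43, Angpt2 (-1.27) and Tgfa (-1.02) lie beyond the left dashed line, and the other 4 lie between the dashed lines.

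Egfl7 was the gene of the 10 that differed most. It lies on chromosome 2 (26581083 to 26592682, mm10) and stood at 89.9 FPKM in B16/BL6 and at 15.8 FPKM in B16, a ratio of 5.68 and a difference of 2.43. Of all genes at the minimum, 0.523% had a larger difference toward B16/BL6. By level it was among the top 10.3% of these genes in B16/BL6 and the top 48.1% in B16. The annotation holds 7 coding transcripts of Egfl7, and which of them were present was not analysed here. In the GENCODE annotation the 3' end of Egfl7 overlaps Agpat2, an enzyme gene of phospholipid synthesis on the opposite strand. By the RefSeq positions the genes do not overlap, as the range of Agpat2 starts at 26593057. Agpat2 was at 45.5 FPKM in B16/BL6 and 30.2 FPKM in B16. The library kit kept strand, but the sources used here do not say whether the counting used it.

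Eng (chromosome 2, 32646595 to 32682669) had the highest level of the 10 in both libraries. It was at 167 FPKM in B16/BL6 and 126 FPKM in B16, a ratio of 1.33 and a difference of 0.41. That placed it in the top 5.04% of genes in B16/BL6 and the top 6.38% in B16. Eng exceeded Egfl7 1.86 times in B16/BL6 and 7.93 times in B16, a ratio within a library that no scaling changes.

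Both genes are markers of endothelial cells, yet nearly all other such markers were at or near 0. Of 19 endothelial markers besides Egfl7 and Eng, 14 were listed at 0 in both libraries, among them Cdh5 (VE-cadherin), Cldn5 and Erg, and their summed level was 7.23 FPKM in B16/BL6 and 2.67 FPKM in B16. Pecam1, the CD31 gene, was listed at 0 in B16/BL6 and at 0.0298 FPKM in B16. Plvap, a protein of endothelial fenestrae, was the only one of the 19 at 1 FPKM or more, at 6.81 FPKM in B16/BL6 and 2.05 FPKM in B16, a difference of 1.35. All 9 melanocyte lineage markers were expressed, at 52.8 to 6160 FPKM in B16/BL6 and 10.6 to 3789 FPKM in B16. By difference, 7 of the 9 were above 0 and 2 below. Of these 9, 2 passed 2-fold, both higher in B16/BL6 (1 after chromosome centring, and 1 on the TPM scale). Of all genes, 50.6% were above 0 and 3.31% were higher by 2-fold or more. The factor genes Mitf (90.7 FPKM in B16/BL6 and 97.1 FPKM in B16) and Sox10 (262 and 308 FPKM) were the 2 below 0, and Tyrp1 stood at 3774 FPKM in B16/BL6 and 3474 FPKM in B16. The markers with the largest differences were the melanosome genes Mlana (6160 FPKM in B16/BL6 and 3789 FPKM in B16), Pmel (4651 and 2166 FPKM in the same order) and Gpr143 (52.8 and 33.2 FPKM), and the tyrosinase gene Tyr (164 and 10.6 FPKM). Of 8 blood cell markers, Lyz2 (3.96 FPKM in B16/BL6 and 2.56 FPKM in B16) and Cd68 (1.23 and 2.83 FPKM) reached 1 FPKM, and the T cell gene Cd3e was listed at 0 in both. Of 9 fibroblast and pericyte markers, 5 were listed at 0 in both, Cspg4 was at 0.879 FPKM in B16/BL6 and 1.05 FPKM in B16, and the receptor gene Pdgfrb was at 7.43 FPKM in B16/BL6 and 0.104 FPKM in B16. Plvap and Pdgfrb were higher in the same library as Egfl7, and their part in that difference was not tested.

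Among the VEGF ligands, Vegfb was by far the most abundant. Vegfb (chromosome 19, 6982472 to 6987651) stood at 113 FPKM in B16/BL6 and 79.5 FPKM in B16, a difference of 0.51. Vegfa (chromosome 17, 46016993 to 46032377) stood at 10.1 FPKM in B16/BL6 and 16.9 FPKM in B16, a ratio of 0.598 and a difference of -0.69. The differences of Vegfb and Vegfa had opposite signs, and each lay within 2-fold.

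Vegfc (chromosome 8, 54077532 to 54186454) stood at 10.5 FPKM in B16/BL6 and 8.28 FPKM in B16, a difference of 0.31. Pgf (chromosome 12, 85166637 to 85177785) was at 0.904 FPKM in B16/BL6 and 0.466 FPKM in B16. Figf, which encodes VEGF-D, a lymphatic ligand like VEGF-C, was at 0.640 FPKM in B16/BL6 and 0.109 FPKM in B16. These last 2 genes stayed under 1 FPKM in both libraries, where few fragments stand behind a value.

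The mix of ligands differed between the libraries. The 4 ligand genes Vegfa, Vegfb, Vegfc and Pgf summed to 135 FPKM in B16/BL6 and 105 FPKM in B16. Vegfb made up 84.0% of that sum in B16/BL6 and 75.6% in B16, and Vegfa 7.50% in B16/BL6 and 16.1% in B16. Vegfc held 7.79% in B16/BL6 and 7.88% in B16. Vegfb exceeded Vegfa 11.2 times in B16/BL6 and 4.71 times in B16. Vegfa has 8 coding transcripts in the annotation, whose proteins differ in how they bind the matrix, and a value per gene does not tell them apart.

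The signalling receptors for these ligands were listed at or near 0, while co-receptors were expressed. Flt1 and Kdr were listed at 0 in both libraries, and Flt4 was at 0.233 FPKM in B16/BL6 and 0.418 FPKM in B16. Nrp2, the neuropilin that also serves VEGF-C, stood at 97.3 FPKM in B16/BL6 and 76.7 FPKM in B16. Nrp1, a co-receptor for VEGF-A, stood at 8.88 FPKM in B16/BL6 and 9.01 FPKM in B16. Of the 5 receptor and co-receptor genes, 2 reached 1 FPKM and 0 passed 2-fold. Of all genes, 6.46% passed 2-fold, so 0 of 2 is near that share.

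**Figure D3:**
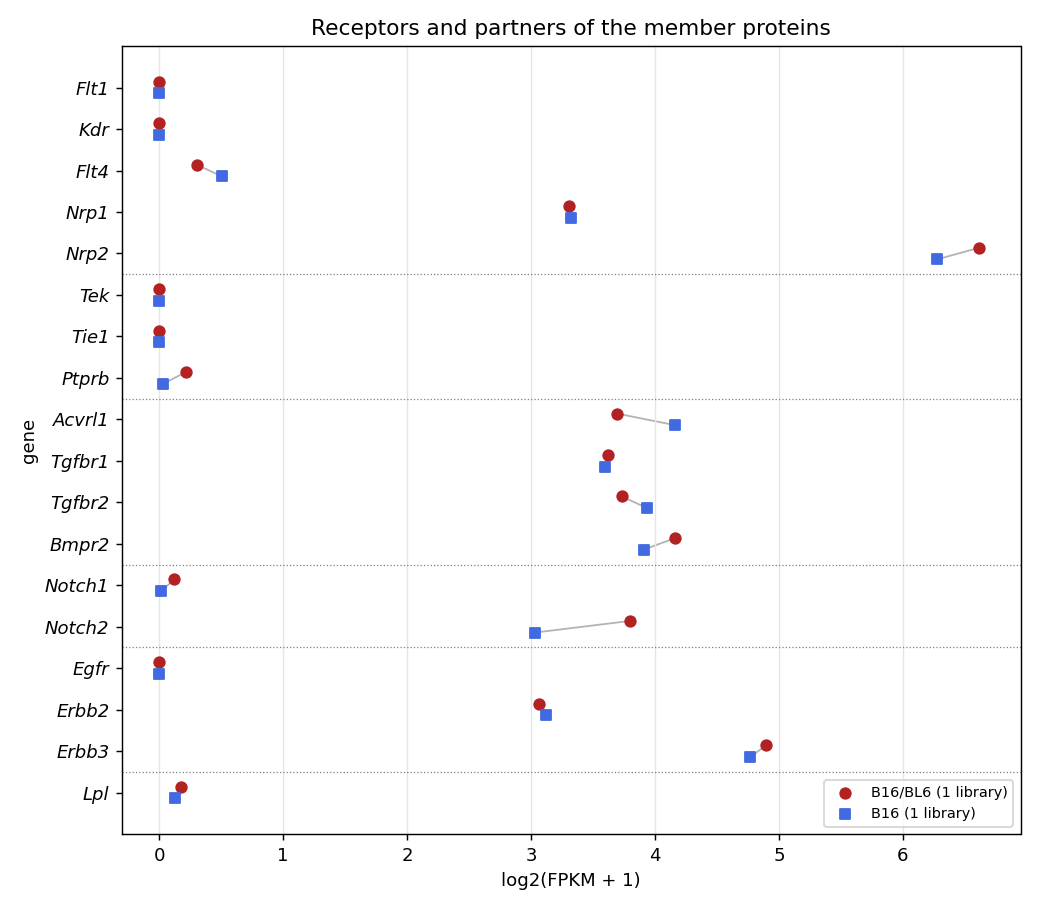
Levels as log2(FPKM + 1) of genes for receptors and partners of the proteins described, in B16/BL6 (red circles) and B16 (blue squares), 1 library each. Dotted lines separate partners of VEGF ligands, angiopoietins, endoglin, Egfl7, Tgfa and Angptl4; Flt1, Kdr, Tek, Tie1 and Egfr lie at 0 in both libraries, and among the 18 genes drawn Nrp2 has the highest level, 97.3 FPKM in B16/BL6 and 76.7 FPKM in B16.

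Angpt2 was the angiopoietin of these cells and was lower in B16/BL6. It lies on chromosome 8 (18690263 to 18741562) and stood at 10.0 FPKM in B16/BL6 and 25.5 FPKM in B16, a ratio of 0.393 and a difference of -1.27. Of all genes at the minimum, 1.89% had a difference further toward B16. Its place by level was the top 60.3% in B16/BL6 and the top 34.1% in B16. Angpt2 lies within the body of Mcph1, a gene of chromosome condensation on the opposite strand, which stood at 6.57 FPKM in B16/BL6 and 5.19 FPKM in B16 and differed the other way.

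Angpt1 (chromosome 15, 42424667 to 42676977) was at 0.0212 FPKM in B16/BL6 and listed at 0 in B16, and no ratio to it is given. The related ligand genes Angpt4, Angptl1 and Angptl7 were listed at 0 in both libraries. Angptl2, an angiopoietin-like gene known from inflammation, was at 69.7 FPKM in B16/BL6 and 59.9 FPKM in B16. Angptl6 was at 1.33 FPKM in B16/BL6 and 1.74 FPKM in B16. Angptl2 therefore held a higher level than Angpt2 in both libraries.

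The angiopoietin receptor genes Tek and Tie1 were listed at 0 in both libraries. Integrins, which angiopoietin-2 can also bind, were expressed. Itgb1 was at 133 FPKM in B16/BL6 and 176 FPKM in B16, Itgav at 26.3 and 33.3 FPKM in the same order, and Itga5 at 8.01 and 12.8 FPKM. All 3 lay below 0 and within 2-fold, with a median of -0.40. Of all genes, 50.6% were above 0 and 6.46% past 2-fold.

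Angptl4 (chromosome 17, 33774900 to 33781575) was close to 0, at 0.145 FPKM in B16/BL6 and 0.0534 FPKM in B16. By a rough estimate of depth, that rested on about 5 fragments in B16/BL6 and 2 in B16. Lpl, the lipase that its product inhibits, was at 0.128 FPKM in B16/BL6 and 0.0943 FPKM in B16. A list of 16 genes held PPAR factors, PPAR targets and lipases, which include known regulators of Angptl4. Of these, 6 reached 1 FPKM, with a median of 0.06. Beside 6.46% of all genes, 0 of these 6 passed 2-fold (1 lower on the TPM scale). Among them were the lipase maturation gene Lmf1 (40.4 FPKM in B16/BL6 and 27.1 FPKM in B16), the receptor gene Rxra (47.5 and 37.6 FPKM), the fatty acid oxidation gene Acadvl (28.6 and 38.0 FPKM) and the lipid droplet gene Plin2 (52.6 and 58.9 FPKM).

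Tgfa (chromosome 6, 86195038 to 86275744) was lower in B16/BL6, just past the 2-fold limit. It stood at 2.04 FPKM in B16/BL6 and 5.18 FPKM in B16, a ratio of 0.394 and a difference of -1.02. With a pseudocount of 5 the difference was -0.53, under the limit. Its ratio was nearly that of Angpt2, and the smaller difference comes with its lower level, on which the pseudocount of 1 weighs more.

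The gene of the receptor for the Tgfa product gave no signal. Egfr was listed at 0 in both libraries, while its relatives Erbb3 (28.8 FPKM in B16/BL6 and 26.3 FPKM in B16) and Erbb2 (7.37 and 7.70 FPKM) were expressed at similar levels. Hbegf, another EGF receptor ligand, was at 2.92 FPKM in B16/BL6 and 3.80 FPKM in B16, and Areg and Ereg were listed at 0 in both. Among all genes, 6.46% passed 2-fold, so counts of 0 in lists this small are near that share. Of 14 genes of this receptor family and its other ligands, 3 reached 1 FPKM and 0 passed 2-fold. Of 11 genes that shed or process ligands, not only those of the EGF receptor, 7 reached 1 FPKM and 0 passed 2-fold. They included the sheddase Adam10 (51.1 FPKM in B16/BL6 and 77.7 FPKM in B16), Rhbdf2 (6.14 and 9.94 FPKM), which guides the sheddase of Tgfa, and the proprotein convertases Furin (20.3 and 24.8 FPKM) and Pcsk7 (12.3 and 9.94 FPKM).

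The list of endoglin signalling genes holds receptors, ligands, signal transducers and target genes, and most of them were expressed. It is not made up like the receptor lists above, so the 2 are not compared. Of 19 genes, 17 reached 1 FPKM. By 2-fold or more, 2 were higher in B16/BL6 (all genes: 3.31%) and 2 were lower (all genes: 3.16%). The median was 0.23. The lower ones were 1 with each chromosome centred and 1 with a minimum of 5 FPKM, and a pseudocount of 5 left 1 in each direction. The endothelial-type receptor Acvrl1 (ALK1) was at 11.9 FPKM in B16/BL6 and 16.9 FPKM in B16. The TGF-beta ligands split. Tgfb3 was at 12.8 FPKM in B16/BL6 and 4.99 FPKM in B16, whereas Tgfb1 was at 0.522 FPKM in B16/BL6 and 7.11 FPKM in B16 and Tgfb2 at 0.363 and 1.80 FPKM. The BMP target gene Id2 was at 292 FPKM in B16/BL6 and 115 FPKM in B16, a difference of 1.34. Its relatives Id3 (0.97) and Id1 (0.65) had positive differences under 2-fold. The circulating endoglin ligand genes Gdf2 and Bmp10 were listed at 0 in both libraries.

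Egfl7 protein is known to act on Notch signalling, and 4 of 12 genes of the Notch pathway list reached 1 FPKM. Of these 4, 0 were past 2-fold, which is near the share of all genes, 6.46%. Notch2 was at 12.9 FPKM in B16/BL6 and 7.18 FPKM in B16, and the ligand gene Jag1 at 5.28 and 3.53 FPKM. The target gene Hes1 was at 5.08 FPKM in B16/BL6 and 7.36 FPKM in B16. Egfl8, the closest relative of Egfl7, was at 0.782 FPKM in B16/BL6 and 1.44 FPKM in B16. Its difference of -0.45 had the opposite sign to that of Egfl7, but lay within 2-fold and near the 1 FPKM minimum. Notch1 was at 0.0884 FPKM in B16/BL6 and 0.00976 FPKM in B16, and the endothelial ligand gene Dll4 was listed at 0 in B16/BL6 and at 0.0279 FPKM in B16.

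Among 18 other vascular growth factor genes, 8 reached 1 FPKM. By 2-fold or more, 1 was higher in B16/BL6 (all genes: 3.31%) and 0 were lower (1 on the TPM scale; all genes: 3.16%). The higher one was Adm, the gene of the vasodilator peptide adrenomedullin, at 35.3 FPKM in B16/BL6 and listed at 0 in B16. The matricellular genes Cyr61 (27.0 FPKM in B16/BL6 and 49.1 FPKM in B16) and Ctgf (6.70 and 10.2 FPKM) and the progranulin gene Grn (149 and 208 FPKM) had negative differences under 2-fold. Fgf2 and Hgf were listed at 0 in both libraries.

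Genes of angiogenesis inhibitors differed in both directions. Of 19 such genes, 11 reached 1 FPKM. By 2-fold or more, 2 were higher in B16/BL6 (all genes: 3.31%) and 2 were lower (all genes: 3.16%). The median was 0.24. The higher ones were 1 with each chromosome centred, and a minimum of 5 FPKM left 1 in each direction. Vash1, the gene of vasohibin, was at 3.21 FPKM in B16/BL6 and 0.772 FPKM in B16, and Timp3, a protease inhibitor that also blocks VEGF binding to its receptor, at 10.3 and 4.01 FPKM. The lower ones were Serpinf1, the gene of the anti-angiogenic PEDF, at 6.06 FPKM in B16/BL6 and 15.6 FPKM in B16, and the semaphorin gene Sema3c, at 0.0519 and 2.98 FPKM. With a pseudocount of 5, 0 of the list passed 2-fold in either direction.

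Vegfa is a classical target of the hypoxia factors. Its lower value, within 2-fold, stood beside lower values of most of the hypoxia targets listed here, and a link was not tested. Adm, also known as a hypoxia target, was not in that list and differed the other way, by 5.18. Of 20 targets listed, 19 reached 1 FPKM and 15 of these were below 0, with a median of -0.39. Of all genes, 50.6% were above 0. By the 2-fold limit, 3 targets were lower in B16/BL6 (all genes: 3.16%) and 1 was higher (all genes: 3.31%). The lower ones were the nucleotide kinase gene Ak4 (2.57 FPKM in B16/BL6 and 15.2 FPKM in B16), the pyruvate dehydrogenase kinase gene Pdk1 (4.53 and 15.9 FPKM) and the carbonic anhydrase gene Car12 (0.0702 and 1.45 FPKM). The higher one was Ndrg1, at 52.0 FPKM in B16/BL6 and 23.5 FPKM in B16, and on the TPM scale the counts were 5 lower and 0 higher.

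The genes of the hypoxia factors and their regulators showed no common direction. Hif1a was at 68.9 FPKM in B16/BL6 and 50.7 FPKM in B16, Epas1 at 1.23 and 1.41 FPKM in the same order, and their partner Arnt at 16.1 and 15.9 FPKM. The prolyl hydroxylase genes Egln1 and Egln3 were at 27.1 and 1.30 FPKM in B16/BL6 and at 37.4 and 0.771 FPKM in B16. Of 10 genes of these factors and of other regulators of Vegfa, 9 reached 1 FPKM. Of these, 5 were above 0 and 4 below, and the median was 0.01. Beside 3.31% of all genes, 1 was higher by 2-fold or more in B16/BL6 (0 with a pseudocount of 5). That was Ppargc1a, a transcriptional co-activator known to induce Vegfa in muscle, at 5.18 FPKM in B16/BL6 and 0.825 FPKM in B16. The abundant control Actb was at 1747 FPKM in B16/BL6 and 1789 FPKM in B16.

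**Figure D4:**
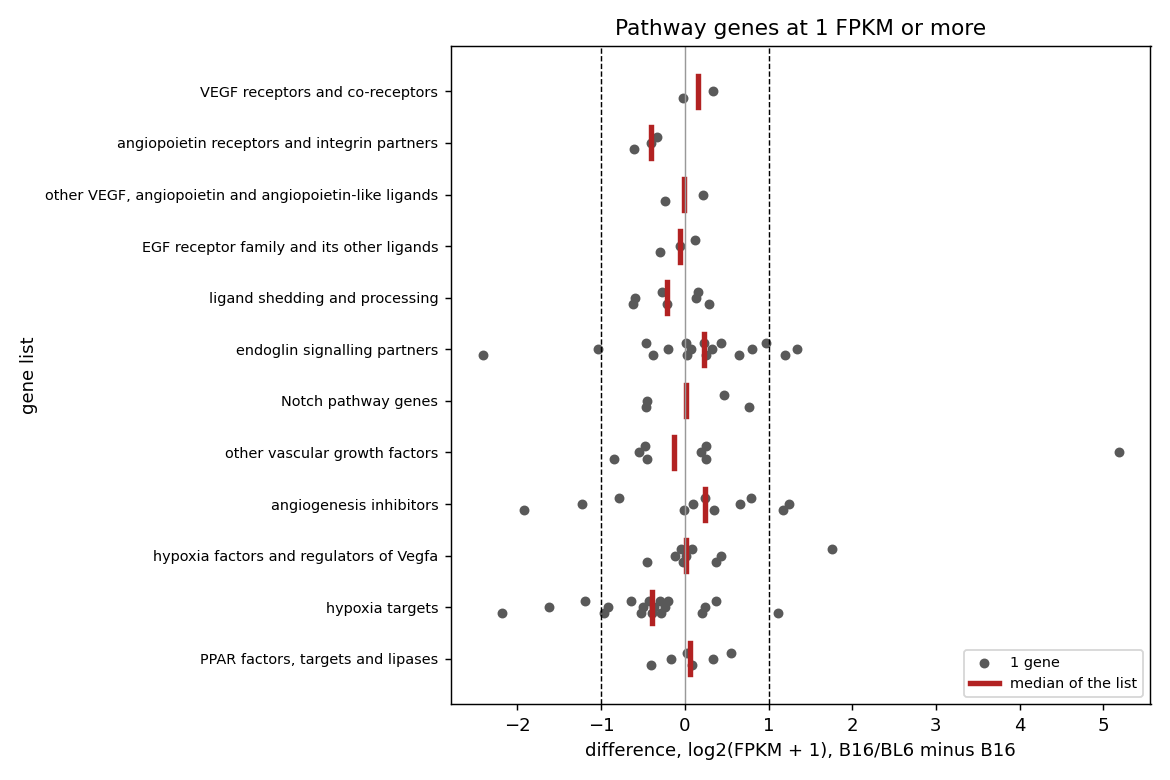
Differences in log2(FPKM + 1), B16/BL6 minus B16, of the genes of 12 pathway lists that reached 1 FPKM (grey points), with the median of each list in red and dashed lines at 2-fold. Receptor, shedding and Notch lists lie wholly within 2-fold, and Adm stands alone at 5.18. These lists hold few genes at 1 FPKM, and 6.46% of all genes passed 2-fold, so 0 past it is near that share. Most genes of the hypoxia target list lie left of 0, with a median of -0.39.

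The closest genes in level over the 2 libraries were Cobll1 and Pdzrn3 for Angpt2, Stx3 and Taf4b for Tgfa, and Ctdsp2 and Gsdmc for Egfl7. Their distances in log2(FPKM + 1) were 0.08 and 0.11 for Angpt2, 0.03 and 0.04 for Tgfa, and 0.54 and 0.60 for Egfl7. Over so few libraries, such closeness says only that a gene had like values in both.

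The fragments behind a value could be put only roughly. Of 379 genes under 0.1 FPKM and above 0 in both libraries, 40.9% shared 1 ratio, read here as single fragments in each. By that reading the B16/BL6 library was 1.10 times as deep as that of B16. The scaling of the values is not given, so this depth ratio is an assumption. With approximate depths of 11100000 fragments in B16/BL6 and 10000000 in B16, and the longest annotated coding transcript, Egfl7 rested on about 1390 fragments in B16/BL6 and 221 in B16. Angpt2 rested on about 397 in B16/BL6 and 911 in B16, Tgfa on 103 and 235, and Vegfa on 388 and 585. Pgf rested on about 21 fragments in B16/BL6 and 10 in B16, and Angpt1 on about 1 in B16/BL6. Reads without molecular identifiers are not independent molecules, and differences between cultures of 1 line could not be seen.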

How the data were processed

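Total RNA of 1 culture of each line was made into strand-specific mRNA libraries (TruSeq, Illumina), per the labels' protocols. The authors deposited FPKM values, 1 per gene symbol, per the file headers. Cufflinks 2.2.1, TopHat2 2.0.13, SAMtools 0.1.19, Bowtie2 2.2.3 and the mm10 build are listed, with no roles, per the submitters' processing notes. Annotation, scaling, strand setting and counts: not given in the sources used here.

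No test was run. Differences are log2(FPKM + 1), B16/BL6 minus B16, for genes that reached 1 FPKM in either library, counted at 2-fold (Python 3.11.15, pandas 2.3.3). The calling code was checked on simulated data without noise, which says nothing about the error of a library. Besides the 10 genes, 16 lists were described. The members and lists were chosen with earlier results of these data known. Text names the 10 genes, fixed partners, up to 4 genes per list with the largest differences, and the 2 genes nearest in level to each member past 2-fold; others (Cdh5, Cldn5, Erg, Pecam1, Figf, Acvrl1, Id1, Id3, Mitf, Sox10, Tyrp1, Epas1, Arnt, Notch1, Dll4, overlapping genes and those at 0) were chosen after their values were seen.

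Positions and promoter windows came from RefSeq GRCm38.p6, the assembly mm10 names, and transcript lengths from GENCODE M21. Depth was taken from genes under 0.2 FPKM with a single transcript over 1.5 kb, keeping estimates from 8000000 to 14000000 fragments, a window that assumes 1 fragment. Protein sequences were not used here. Alternatives were other scalings, pseudocounts, minima and a 4-fold limit.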

Additional observations from a re-analysis of the deposited data

How the results depend on the processing

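Egfl7 stayed at least 2-fold higher under the 8 alternatives, with differences from 2.19 to 2.50, and Angpt2 stayed between -1.47 and -1.02. Tgfa ranged from -1.30 to -0.53, Vegfa from -0.88 to -0.54, Vegfb from 0.34 to 0.55, Vegfc from 0.16 to 0.34 and Eng from 0.24 to 0.42. No difference of the 7 genes changed sign, but only the scalings and the chromosome centring could have reversed one. The minima and the fold limit leave a difference as it is, and a pseudocount cannot reverse its sign. With a pseudocount of 5, the genes at least 2-fold lower were 1 of the 7 and 118 of all genes, and 151 of all genes were higher. With a 4-fold limit, 0 of the 7 were lower, and of all genes 82 were higher and 65 lower. All genes at least 2-fold lower numbered 583 on the TPM scale, 511 with a pseudocount of 0.1 and 212 with a minimum of 5 FPKM. The TPM scale shifted the median difference of all genes to -0.16, beside which the TPM-scale values are to be read. Of 88 recomputed list counts whose reported value was above 0, 24 moved by over 1.5 times, and most other list counts were 0 throughout. No paired analysis was possible because each line had 1 library, and for the same reason no replicate could be left out. Genes under 1 FPKM rest on few fragments, and their differences are limited by depth.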

Other observations

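Genes beside the 3 that passed 2-fold on their chromosomes did not share the size of the difference. The 3 expressed genes on each side of Egfl7 had differences from -0.26 to 0.95, with the highest for Fam69b (8.88 FPKM in B16/BL6 and 4.10 FPKM in B16) and the next for Agpat2, at 0.58. The 6 around Angpt2 lay from 0.04 to 0.29, all above 0 where Angpt2 was at -1.27. The 6 around Tgfa lay from -0.50 to 0.64, and 0 of these 18 neighbours passed 2-fold. Of all genes, 6.46% passed 2-fold in either direction, so 0 in so few genes is near that share. Beside the members within 2-fold, 1 neighbour of Vegfb and 2 of Eng passed 2-fold, and 0 of Vegfa or Vegfc. These neighbours were looked up after the differences were known, and no test was run on them.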
